A study of Mus musculus with 12 samples.

Results

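The genes described here are the core of the circadian clock. They are Per1, Per2, Per3, Cry1 and Cry2, which encode the repressors of the loop, Arntl and Clock, which encode its activators, Nr1d1 and Nr1d2, which encode nuclear receptors of a second loop, and Dbp, a transcription factor at the output. They were chosen by name, with no measured value in the rule, and are 10 of the 23953 genes in the RNA tables. For each gene the RNA level was read per transcript and per gene, and peaks of 5-hydroxymethylcytosine (5hmC, an oxidised form of methylated cytosine made by the TET enzymes) were read over the gene body and 20 kb on either side, called its window here.

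The study asked how a single restraint alters hippocampal 5hmC in male C57BL/6 mice. The stress group (6 mice) was restrained for 30 min, beginning 2 h after lights on, and then housed singly in a clean cage for 1 h. The control group (5 mice) was naive, and both groups received brief isoflurane before dissection. Whole hippocampus was taken by micropunch from frozen brains, and mice were pooled by 2, with 1 mouse alone in the smallest pool, into 3 libraries per group for 5hmC and for RNA. By the group sizes, the pool of 1 mouse falls in the control group. The age tag reads postnatal day 28, whereas the protocol gives 7 weeks. Cages were kept on 12 h of light and 12 h of dark. By the protocol, naive mice left their cage when restraint began, and stressed tissue was collected 1.5 h after that moment. How soon after leaving the cage the naive mice were dissected is not stated. Clock transcripts cycle with the time of day, and if the naive tissue was taken at that moment, restraint and the clock time of collection cannot be told apart in any value given here.

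In the mammalian clock, the proteins of Clock and Arntl (the latter also called BMAL1) bind E-box sequences as a pair and switch on the Per and Cry genes, whose products return to the nucleus and block the pair. Nr1d1 and Nr1d2 (REV-ERB alpha and beta) are also switched on through E-boxes and repress Arntl through sites they share with the ROR activators, while Dbp activates genes that carry D-boxes. Outside the master pacemaker of the hypothalamus, including in the hippocampus, the same loop runs in many cells, and Per1 in particular is known as an immediate target of the glucocorticoid receptor and of the cAMP factor CREB.

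Promoters are shown for the genes whose start region matters below: Per1, whose RNA is divided between 2 start sites, Cry1, which carried a 5hmC region behind its start in stress libraries alone, and Nr1d1, whose body held a peak in every library. The sequences are from RefSeq, build GRCm38.p6, and run 5′ to 3′ from 250 bases before to 50 after the start. Of the 10 genes, 9 (all but Per2) matched the RefSeq table, with 13 promoters in all. Capitals mark matches on either strand to 1 of the motifs named in the next paragraph. The upstream Per1 start lies in chr11:69098699-69098998 (plus strand), the downstream Per1 start in chr11:69099902-69100201 (plus strand), Cry1 in chr10:85185005-85185304 (minus strand) and Nr1d1 in chr11:98775328-98775627 (minus strand).
Per1, upstream start: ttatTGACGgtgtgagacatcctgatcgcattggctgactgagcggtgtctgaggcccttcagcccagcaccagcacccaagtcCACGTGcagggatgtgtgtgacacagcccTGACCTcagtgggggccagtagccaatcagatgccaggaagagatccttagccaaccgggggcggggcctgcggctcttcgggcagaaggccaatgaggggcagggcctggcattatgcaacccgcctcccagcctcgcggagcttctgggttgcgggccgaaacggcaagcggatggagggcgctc
Per1, downstream start: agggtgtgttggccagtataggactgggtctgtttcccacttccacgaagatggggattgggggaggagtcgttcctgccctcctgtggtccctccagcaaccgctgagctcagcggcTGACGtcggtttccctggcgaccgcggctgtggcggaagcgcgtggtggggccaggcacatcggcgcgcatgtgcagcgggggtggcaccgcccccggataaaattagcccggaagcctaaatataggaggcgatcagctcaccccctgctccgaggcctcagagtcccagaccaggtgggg
Cry1: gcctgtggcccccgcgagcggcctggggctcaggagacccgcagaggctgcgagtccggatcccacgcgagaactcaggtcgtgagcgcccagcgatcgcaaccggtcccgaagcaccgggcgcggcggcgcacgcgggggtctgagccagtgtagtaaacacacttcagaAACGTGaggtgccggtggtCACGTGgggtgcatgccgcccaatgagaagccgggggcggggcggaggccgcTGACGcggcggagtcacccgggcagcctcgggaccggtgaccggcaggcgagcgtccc
Nr1d1: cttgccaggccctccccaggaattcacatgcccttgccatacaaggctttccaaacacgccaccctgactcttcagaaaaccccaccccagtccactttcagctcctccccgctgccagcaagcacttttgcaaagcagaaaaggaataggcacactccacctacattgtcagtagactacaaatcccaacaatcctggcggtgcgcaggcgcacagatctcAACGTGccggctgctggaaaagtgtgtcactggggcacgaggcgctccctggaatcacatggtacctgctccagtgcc

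In these windows the E-box CACGTG occurred in the upstream Per1 promoter, at -166 to -161, and in Cry1, at -60 to -55, counting the start base as 0. It was present in 7.15% of the 32851 RefSeq promoters of the same length. The E′-box CACGTT, a weaker form of the same site that appears as AACGTG on the other strand, occurred in Cry1, Cry2 and Nr1d1, and in 4.68% of all promoters. Cry1 carried both forms. The CREB site TGACGTCA was found in 0 of the 13 promoters (1.79% of all), whereas its core TGACG, which every full site also holds, was found at both Per1 starts, in Cry1 and in Cry2 (20.8% of all). The D-box TTATGTAA occurred at -205 to -198 and again at -158 to -151 in Per3, against 0.938% of all promoters with any match. The ROR site AGGTCA occurred in the upstream Per1 promoter and in that of Nr1d2 (16.3% of all). It was also found in the downstream one of 2 Arntl promoters and in the most downstream of 3 Clock promoters. The glucocorticoid receptor motif (G, any base, ACA, 3 bases, TGT, any base, C) was in 0 of the 13 (0.475% of all), and the promoter of Dbp held no match to any motif searched. A match describes letters, and no match says only that the letters are not in these 300 bases. The 13 promoters held 9 to 46 CG dinucleotides, with a median of 21, against a median of 7 over all promoters.

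RNA was deposited as a single table for each group, in FPKM (fragments scaled to transcript length and to the size of the library), without replicates, so no RNA difference has an error or a test. Differences are log2((stress + 1)/(control + 1)), which understates the change of low genes, and the 11071 genes whose 2 tables average 1 FPKM or more, all 10 clock genes among them, form the background. The median difference over that background was 0.08, and 69.4% of it was higher in the stress table. The 6 peak lists held 15195 to 31654 peaks and covered 16.6, 33.6 and 38.1 Mb in stress libraries 1, 2 and 3 and 16.9, 30.1 and 16.7 Mb in control libraries 1, 2 and 3. The labels do not say that a replicate number marks a shared animal or day. All 10 markers of hippocampal neurons were present, at 4.67 to 338 FPKM in the control table. Of 6 markers of the suprachiasmatic nucleus, the master pacemaker, Six6 and Nms were listed at 0 in both tables and Avp and Lhx1 were listed at 0 in the control table, while Vip, which hippocampal interneurons also express, was at 2.66 and 3.40 FPKM in control and stress.

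In hippocampal RNA, 9 of the 10 clock genes were higher in the stress table and Dbp was lower. Per2 (1.51-fold) and Per1 (1.33-fold) had the highest ratios, and the cryptochromes, Clock and Per3 lay within 10% of their control level. The median log2 difference of the 10 genes was 0.13 beside 0.08 for all genes, with 6 genes above the all-gene median and 4 below it (Cry1, Cry2, Clock and Dbp). A difference of 0.32 on that log2 scale, in either direction, was used to call a gene. By it 2 of the 10 genes (Per1 and Per2) were called higher, where 7.71% of all genes were, and 0 were called lower, where 3.52% were. At a ratio of 1.5 on the same scale 0 of the 10 were called in either direction, against 1.18% of genes higher and 0.894% lower. After subtraction of the all-gene median, Per2 was at 0.32 and Per1 at 0.27, both just short of the call, and Dbp was at -0.39, past it. Fewer cells of a type and less RNA per cell cannot be told apart in bulk tissue, and the choroid plexus markers moved with the groups: all 12 stood lower after stress, their summed level being 239 FPKM in control and 66.7 FPKM in stress. Markers of ependyma (6 of 6) and oligodendrocytes (9 of 10) were also lower, and those of astrocytes (8 of 8) were higher. Markers of thalamus and habenula (7 of 10), microglia (6 of 8) and hippocampal neurons (6 of 10) were higher in part, beside the 69.4% of all genes. The part of these cell types in the clock gene differences was not tested.

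**Figure D1:**
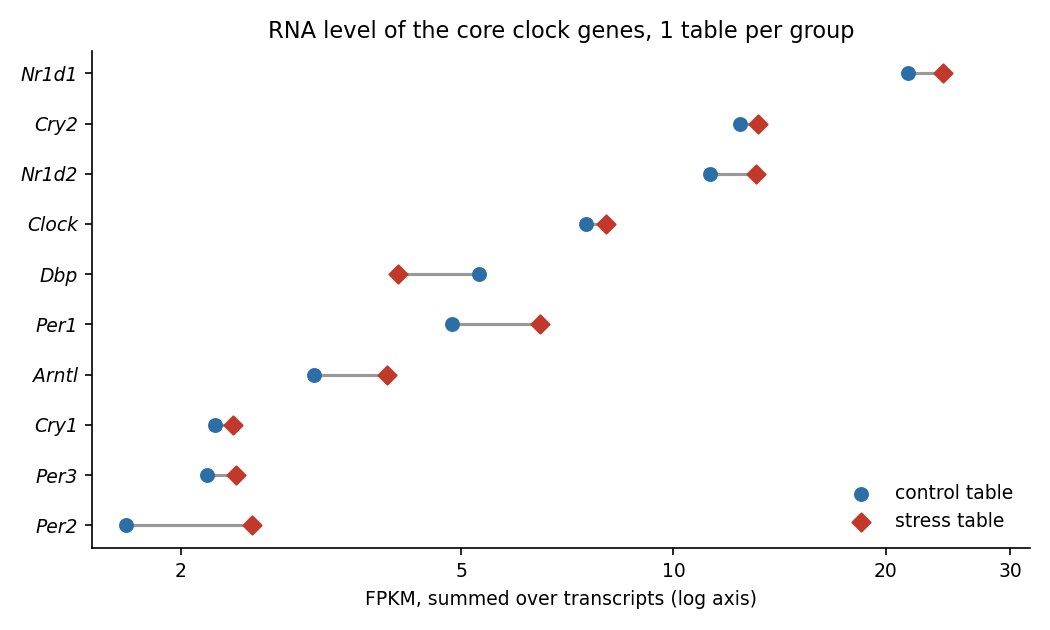
FPKM of the 10 clock genes on a log axis, summed over transcripts, in the control table (circles) and the stress table (diamonds), with a line joining the values of a gene. Nr1d1 was highest in both tables, and Dbp was the only gene of the 10 with the stress value to the left of the control value.

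Among the period genes, whose proteins carry the repressor complex, Per1 had 4.85 FPKM in the control table and 6.46 FPKM in the stress table. Per2, its paralog, had 1.67 and 2.53 FPKM, the lowest control level of the 10 genes. Their log2 differences were 0.35 and 0.40, and 6.15% and 4.08% of all genes had a higher difference than each. Per3, the third paralog, had 2.18 and 2.39 FPKM and a difference of 0.09, near the middle of all genes. The cryptochromes, which bind the activator pair and silence it, lay close to their control level. Cry1 had 2.24 and 2.38 FPKM and Cry2 12.4 and 13.2 FPKM, so that Cry2 was 5.54 times as high as Cry1 in both tables.

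The activators were present at moderate levels. Arntl had 3.09 FPKM in control and 3.92 FPKM in stress, a ratio of 1.27 and a log2 difference of 0.27, and 12.3% of genes had a higher difference. Clock, its partner, had 7.52 and 8.02 FPKM and a log2 difference of 0.08, at the all-gene median. Clock RNA was therefore 2.43 times as abundant as Arntl RNA per length in control and 2.04 times in stress. The repressors of the second loop stood high: Nr1d1 had 21.5 and 24.1 FPKM, the highest level of the 10 genes in both tables, and Nr1d2 had 11.3 and 13.1 FPKM. Their log2 differences of 0.16 and 0.20 were exceeded by 31.6% and 21.9% of all genes. The order of the 10 control levels, from high to low, was Nr1d1, Cry2, Nr1d2, Clock, Dbp, Per1, Arntl, Cry1, Per3 and Per2, and the ratio of the highest to the lowest was 12.8 in control and 10.1 in stress. Whether neighbours in this order differ could not be tested, as no spread over samples is given.

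Dbp, the output factor that binds D-boxes, moved the other way. It had 5.30 FPKM in the control table and 4.07 FPKM in the stress table, a ratio of 0.769 and a log2 difference of -0.31, and 3.82% of all genes had a lower difference. The 3′ end of Dbp overlaps Sphk2, a lipid kinase gene on the opposite strand, by 741 bp of gene body and 539 bp of shared exon. Sphk2 had 3.02 FPKM in control and 4.14 FPKM in stress. Strand use in counting was not given in the sources used here, so reads in the shared stretch cannot be told apart. Cry2 likewise shares 149 bp of exon with D930015M05Rik on the opposite strand, which had 0.183 FPKM in control and was listed at 0 in stress.

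**Figure D2:**
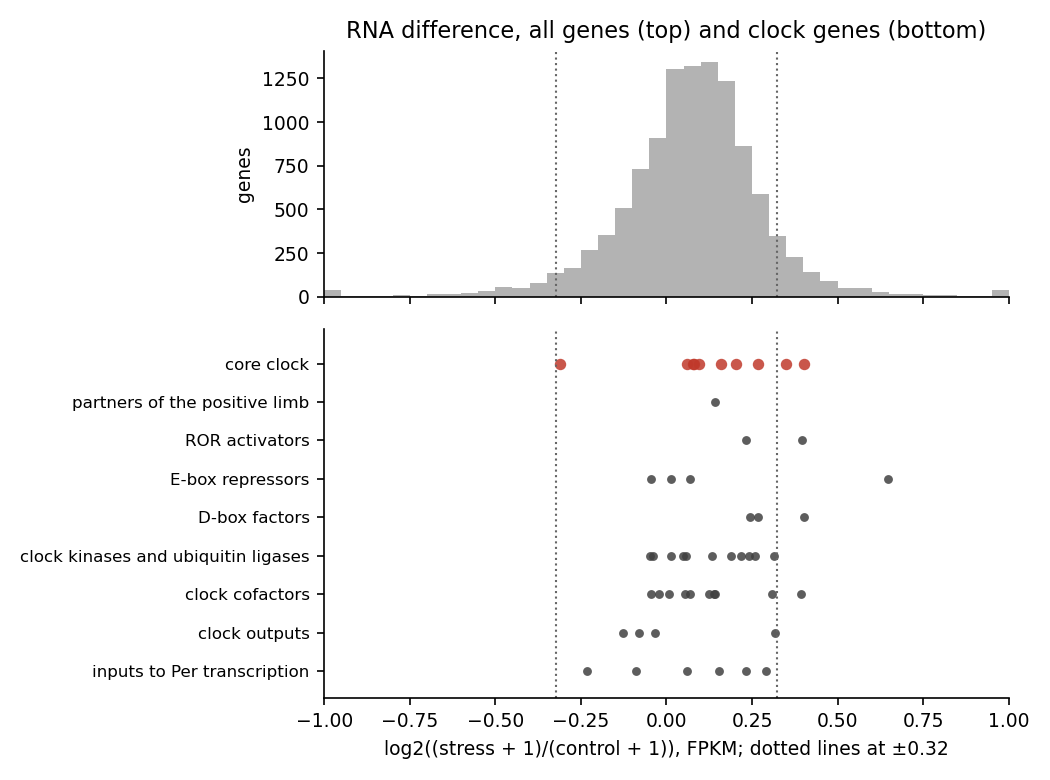
Number of genes by RNA difference (top, the 11071 background genes, values beyond the axis in the end bins) and the differences of single genes (bottom, 1 point per gene, by list), with dotted lines at a log2 difference of 0.32 in each direction. Per1 and Per2 lie right of the right line, Dbp lies just inside the left line, and Bhlhe40 has the highest value among the clock lists.

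By transcript, nearly all of the additional Per1 RNA in the stress table was assigned to the upstream start. The transcript from that start (NM_011065, start at chr11:68912458 in mm9) had 0.00246 FPKM in control and 1.53 FPKM in stress, which is 0.0506% and 23.7% of the gene. The transcript from the downstream start (NM_001159367, start at chr11:68913660, 1202 bp away) had 4.85 FPKM in control and 4.93 FPKM in stress. The upstream promoter is the one printed above with an E-box, and both Per1 promoters hold the CREB core TGACG. Only 53 bases of the upstream transcript and 38 bases of the downstream one are in no other transcript, so the split rests on reads over short stretches, whose number the tables do not give. By its most abundant transcript alone, the Per1 log2 difference was 0.02 and not past the call. Among the 4 clock genes with several transcripts, Per1 and Per3 changed by at least 20 percentage points in the share of a transcript, as did 29.8% of 3211 such genes. When shares were formed by start site, Per1 was past that change (23.6 points) and Clock was not (12.8 points), against 20.2% of 1472 genes with several starts.

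The Per3 transcripts share a start and were reassigned almost entirely. NM_001289877 had 2.18 FPKM in control and 0.0739 FPKM in stress, and NM_001289878 had 0.000237 FPKM in control and 2.11 FPKM in stress. NM_011067 went from 0.0023% to 8.81% of the gene. Neither NM_011067 nor NM_001289877 has bases of its own. NM_001289877 thus lost 96.9 points of its share, most of them to NM_001289878, which is told apart by 49 bases, while the gene total went from 2.18 to 2.39 FPKM. Of all genes with several transcripts, 1.46% had a change as large. For Arntl, NM_007489 had 3.09 and 3.55 FPKM in control and stress. NM_001243048, which has no bases of its own, had 0.000337 and 0.370 FPKM. For Clock, NM_007715 had 4.85 and 6.20 FPKM and NM_001289826, which starts farther upstream, had 2.67 and 1.82 FPKM, so that the form with the downstream start made up 64.5% and 77.3% of the gene.

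**Figure D3:**
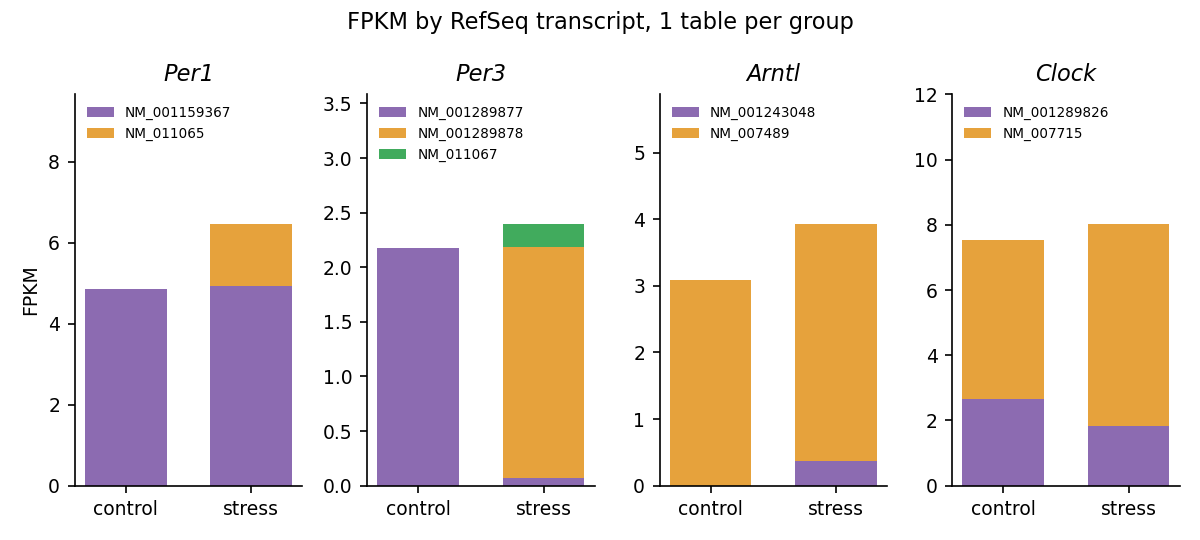
FPKM by RefSeq transcript, stacked for each table, for the 4 clock genes with more than 1 transcript. In Per1 the stress bar exceeds the control bar by the NM_011065 segment, and in Per3 the bars have nearly equal height and different transcripts.

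Genes that act on the core loop were read from 8 lists of 46 genes, of which 41 were kept. Of these, 4 genes were past the same log2 difference of 0.32 upward and 0 downward, with 31 higher and 10 lower in sign and a median of 0.13, the same as for the core genes. Over all genes, 7.71% were past that difference upward and 69.4% were higher in sign. Bhlhe40, a repressor that competes for E-boxes, had 9.94 FPKM in control and 16.1 FPKM in stress (log2 difference 0.65). Rora, which activates Arntl at the sites that Nr1d1 occupies, had 6.16 and 8.43 FPKM (0.40). Nfil3, which represses at D-boxes, had 1.43 and 2.21 FPKM (0.40), and Crebbp, a coactivator of CREB, had 13.0 and 17.3 FPKM (0.39). The relatives of Dbp, Tef and Hlf, were higher in the stress table, at 27.9 and 33.2 FPKM for Tef and 17.5 and 21.3 FPKM for Hlf, unlike Dbp itself. Among the 6 kept inputs to Per transcription, 4 were higher in the stress table and 2 were lower. The glucocorticoid receptor gene Nr3c1 was among the lower ones, with 8.58 FPKM in control and 7.17 FPKM in stress, and was not past the call.

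In the mean over the 10 clock gene windows, peaks of 5hmC covered more in stress libraries than in control libraries. The windows contributed unequally: stress minus control was 12.9 points for Dbp, 7.79 for Nr1d1 and 6.73 for Cry2. For Per2, Per3 and Nr1d2 it was 0.36, 0.17 and -0.03 points. The windows include flanks, so peaks on neighbouring genes count in these values. In 5 of the 10 windows (Per1, Cry2, Arntl, Clock and Dbp) every stress library was above every control library, a pattern seen in 10.5% of the 18203 genes with a peak in their window. The opposite pattern was seen in 0 of the 10, against 1.1% of genes. For each of the 5 the exact two-sided permutation p was 0.1, the smallest that 3 against 3 libraries allow, and the adjusted p over all genes was 0.86, so no single gene passed 0.05 and none could. In the mean over the 10 windows, peaks covered 2.43%, 6.96% and 7.02% in stress libraries 1, 2 and 3 and 1.32%, 2.24% and 1.42% in control libraries 1, 2 and 3. The groups did not overlap, with 5.47% ± 2.63 in stress and 1.66% ± 0.503 in control (SD, n = 3 each), but stress 1 stood far below the other stress libraries and close to control 2.

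Windows of all genes were also covered more in stress libraries, at 1.95% ± 0.753 against 1.18% ± 0.503 (SD, n = 3 each). Divided by that all-gene mean, coverage of the clock windows was 2.21, 3.18 and 2.76 times the mean gene in stress libraries 1, 2 and 3 and 1.47, 1.27 and 1.61 times in control libraries 1, 2 and 3. On this relative measure the groups again did not overlap for the mean of the 10 genes. Among single genes, Cry2, Arntl and Dbp had groups that did not overlap, with stress higher, against 5.55% of all genes, none had control higher, against 6.14%, and Per1 and Clock no longer did. When each list was shortened to the same covered length, an alternative chosen after seeing the data, the 3 genes were Per1, Cry1 and Cry2, against 7.97% of genes.

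**Figure D4:**
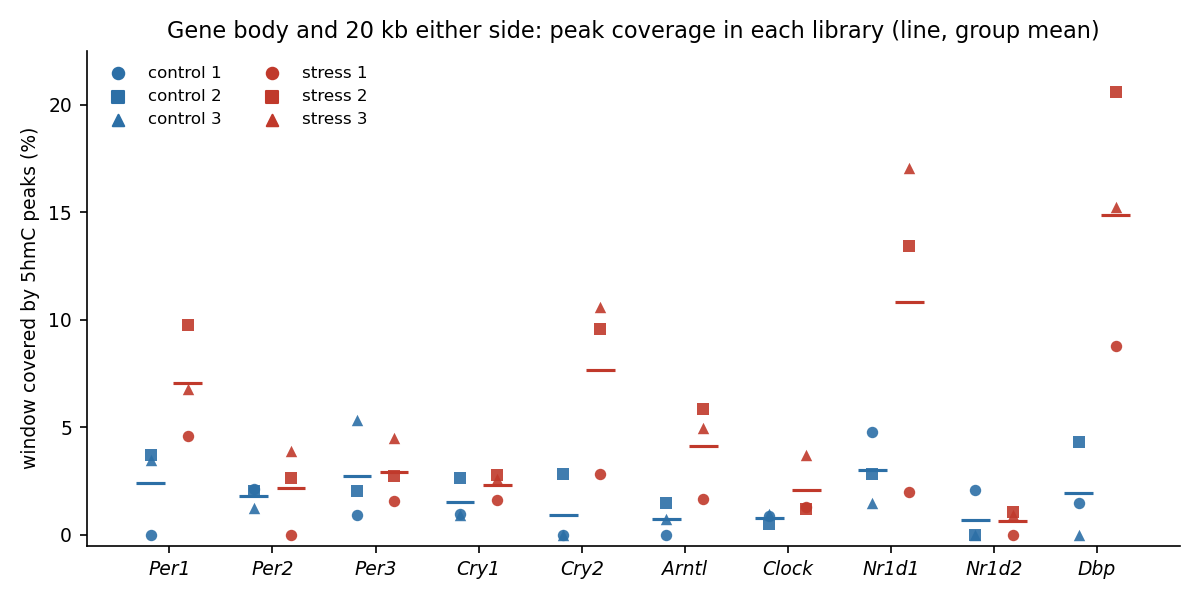
Percentage of each clock gene window covered by 5hmC peaks in the 3 stress and 3 control libraries (1 symbol per library, line at the group mean). Stress symbols lie above all control symbols for Per1, Cry2, Arntl, Clock and Dbp, and the Dbp and Nr1d1 windows reach the highest coverage.

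For the repressors, the window of Per1 was covered to 4.60%, 9.75% and 6.80% in stress libraries 1, 2 and 3 and to 0%, 3.73% and 3.46% in control libraries 1, 2 and 3. All stress values were above all control values, with control 1 lacking any peak. Within the Per1 body alone the values were 7.90%, 29.6% and 21.2% in stress and 0%, 9.57% and 0% in control, so control 2 exceeded stress 1 there. Cry2 had 2.83%, 9.55% and 10.6% in stress and 0%, 2.81% and 0% in control. The groups did not overlap, by a narrow margin between stress 1 and control 2. Within the Cry2 body the values were 0%, 11.3% and 14.1% in stress libraries 1, 2 and 3 and 0% in every control library. The Cry2 coverage of stress 1 was thus all in the flanks, part of it on exons of the neighbour Mapk8ip1. Per2 (2.17% ± 1.98 in stress, 1.81% ± 0.473 in control), Per3 (2.93% ± 1.48 and 2.76% ± 2.30) and Cry1 (2.34% ± 0.611 and 1.51% ± 0.972; SD, n = 3 each) overlapped between groups.

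For the activators, Arntl had 1.65%, 5.84% and 4.97% in stress libraries and 0%, 1.47% and 0.725% in control libraries. Clock had 1.30%, 1.22% and 3.69% in stress and 0.868%, 0.494% and 0.978% in control. Neither overlapped between groups, but in Clock the gap between the lowest stress and the highest control value was small. Of the second loop, Nr1d1 ranged widely, with 1.99%, 13.4% and 17.0% in stress and 4.78%, 2.84% and 1.48% in control, and its groups overlapped because stress 1 was low. All regions in the downstream flank of Nr1d1 lay on exons of the neighbour Thra, with peaks of stress 2 and stress 3 alone. The Nr1d1 window thus also took in peaks of another gene. Nr1d2 had 0%, 1.07% and 0.915% in stress and 2.07%, 0% and 0% in control, the sparsest window of the 10.

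Dbp had the widest difference, with 8.78%, 20.6% and 15.2% in stress libraries and 1.48%, 4.34% and 0% in control libraries. All stress values were above all control values, at 14.9% ± 5.90 against 1.94% ± 2.20 (SD, n = 3 each). Most of this coverage was outside Dbp. In its body of 4.96 kb a peak was present in stress 3 (15.8%) and control 1 (13.5%) and in no other library. The peaks around it lay in the neighbours Ntn5, Car11, Sphk2, Fam83e and Spaca4, so this window also took in peaks of other genes. Limited to gene bodies, 1 of the 10 genes (Clock) had groups that did not overlap, against 7.48% of all genes, and with a flank of 5 kb there were 2 (Clock and Dbp), against 8.36%.

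Merged over the 6 lists, the windows held 67 regions, 37 of them touching a clock gene body, and 41 were found in 1 library alone (61.2%, against 56.9% of all 74450 regions). A single region drew peaks from all 6 libraries, in Nr1d1 (chr11:98630048-98633349, mm9, reaching exons), with its nearest edge 3342 bp inside the gene from the start whose promoter is printed above. No stretch of it was under a peak in all 6: the control 3 peak, 3.73 to 4.43 kb from the start, overlapped only the wide stress 3 peak, 3.34 to 6.61 kb from it, and the other 4 peaks began at 4.50 kb or beyond. There were 6 regions in 4 libraries each. In Per1, chr11:68913921-68915103 began 261 bp past the downstream start and was found in all 3 stress libraries and control 2, with the authors' scores of 70.8, 133 and 80.0 in stress libraries 1, 2 and 3 and 151 in control 2. A further Per1 region, chr11:68920350-68922430, was found in stress 2 and 3. At the shared end of Dbp and Sphk2, chr7:52964792-52969310 was found in all 3 stress libraries and control 2, with scores of 58.4, 136 and 53.4 in stress libraries 1, 2 and 3 and 60.3 in control 2.

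Of the 67 regions, 25 recurred in 2 to 4 libraries, 14 of them with both groups, 9 in stress libraries alone and 2 in control libraries alone. Of the 12 in exactly 2 libraries, 7 were in a pair of stress libraries, 2 in a pair of control libraries and 3 in 1 of each. Shares over all regions were not formed for these counts, so they do not mark a trait of the clock windows. The lists of stress 2, stress 3 and control 2 were the longest, at 27797, 31654 and 27916 peaks. Stress-pair regions lay in the windows of Per1, Per2, Cry2, Arntl, Nr1d1 and Dbp. Upstream of Cry2, chr2:92285970-92287266 was found in all 3 stress libraries and control 2, and inside Clock, chr5:76659538-76660945 was found in stress 2 and 3 and in control 2 and 3. The Clock region had scores of 75.2 and 60.9 in the stress libraries and 88.9 and 82.0 in the control libraries. In Arntl, chr7:120362355-120363632 was found in stress 2, stress 3 and control 2, and chr7:120398391-120401692 in stress 1 and 2. Other Arntl regions were each in a single library. In Per3, chr4:150398082-150400369 was found in stress 2, stress 3 and control 3, and chr4:150414005-150416420, nearer the start, in stress 3, control 2 and control 3. Per2 had a region 4344 bp upstream of its start (chr1:93360249-93361069) in control 1 and 2 and in no stress library. In Nr1d2, chr14:19042430-19043322 was found in stress 2, stress 3 and control 1.

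Stress-only regions, with a peak in all 3 stress libraries and no control library, numbered 2 in these windows, and control-only regions 0. Such regions made up 1.14% and 0.371% of all regions, and 6.58% and 1.58% of genes had one in their window. The stress-only region in Cry1, chr10:84641562-84642535 (mm9, 974 bp), lay in an intron with its nearest edge 5264 bp from the start, and had scores of 52.1, 69.8 and 55.6 in stress libraries 1, 2 and 3. The lowest score deposited was 50 in every list. Closer to the start, at chr10:84645353-84646309 (1490 bp from it), Cry1 had a region in all 3 control libraries and stress 2. The other stress-only region, chr2:92225488-92227793, lay in the downstream flank of Cry2 on exons of Mapk8ip1, a scaffold of JNK signalling, and over Mir7000, with scores of 77.2, 104 and 120. Mapk8ip1 had 30.3 FPKM in control and 24.1 FPKM in stress. Without stress 1 there were 7 stress-only regions, without stress 3 there were 4 and without control 2 there were 5, while such regions rose to 5.27%, 2.56% and 2.89% of all regions. Control-only regions numbered 1 without stress 2, without control 2 and without control 3, while such regions rose to 0.725%, 1.35% and 1.68% of all regions.

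**Figure D5:**
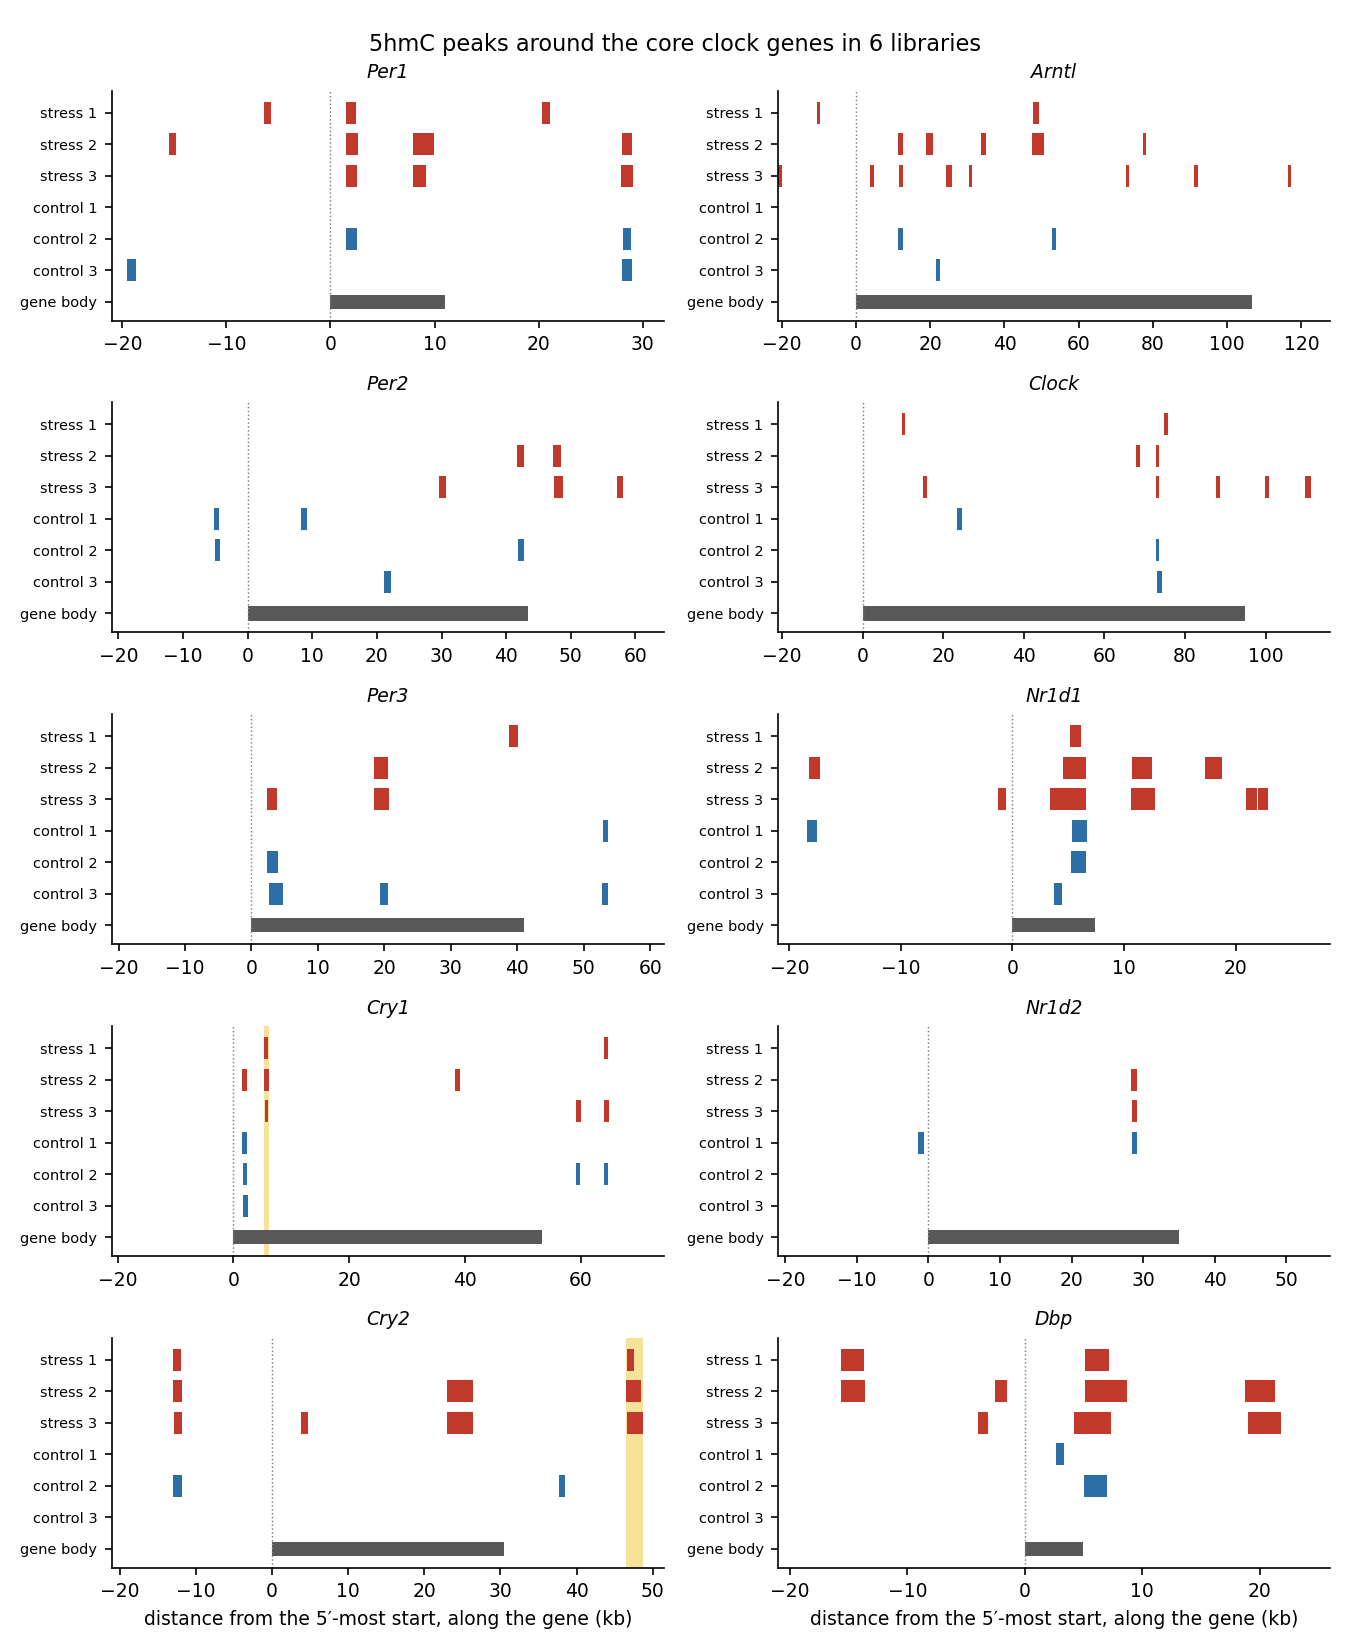
Deposited 5hmC peaks in each of the 6 libraries along the 10 clock gene windows, in kb from the 5′-most start in the direction of the gene, with the gene body as a grey bar and stress-only regions shaded. Per1 and Nr1d1 carry recurrent peaks inside the body, Cry1 shows the control peaks nearer the start than the shaded region, and the Dbp peaks mostly flank the gene.

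At the 12 annotated starts of the clock genes, 0 were under a peak in any library, and 1.40% of 13035 starts of kept genes were. A peak edge came within 1 kb at 3 of them, at 261 bp for the downstream Per1 start, 543 bp for Nr1d1 (in stress 3) and 599 bp for Nr1d2 (in control 1). The nearest edge to the upstream Per1 start was 1463 bp away. A library without a listed peak may still hold 5hmC below the deposited limit.

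Around the wider clock genes, 45 of 46 windows held a peak. In 4 (Cipc, Csnk1e, Prkaa1 and Crtc1) every stress library was above every control library, and in 1 (Bhlhe41) the reverse held, against 10.5% and 1.1% of all genes. Crtc1, a coactivator of CREB, had 3.58%, 5.85% and 8.18% in stress and 1.68%, 2.16% and 2.99% in control. Bhlhe41, the paralog of Bhlhe40, had 3.04%, 0% and 3.87% in stress and 4.02%, 4.77% and 6.76% in control, and its body held a control-only region (chr6:145805813-145807888, mm9). Its RNA was at 3.29 FPKM in control and 3.16 FPKM in stress. Of the 46 wider clock genes, 5 had a stress-only region in their window and 1 had a control-only region. Among all genes with a peak in their window, 6.58% and 1.58% did. Stress-only regions lay in the bodies of Gsk3b, a kinase of clock proteins, of Fbxw11, an adaptor for the ubiquitination of PER proteins, and of Creb1, which encodes CREB, and at 2 places in Crebbp. Window coverage of Gsk3b, Fbxw11, Creb1 and Crebbp overlapped between groups. The stress-only region in the window of Crtc1 was on the neighbour Comp.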

How the data were processed

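5hmC was captured by azide-glucose and biotin labelling from 10 ug of pooled DNA sheared to 300 bp and read as 50 nt single ends. RNA (100 ng) was read as 100 nt paired ends, per the labels' protocols. Alignment to mm9 used Bowtie 0.12.9 for 5hmC, with edgeR also named, and TopHat 1.0.12, Cufflinks 2.1.1 and Cuffdiff 2.1.1 for RNA, per the submitters' processing notes. The authors deposited 1 peak list per 5hmC library, with peak names as MACS writes them and a score per peak of unstated scale that was used to rank peaks within a list. The sources used here give neither the version of the peak caller nor an input library. The authors deposited 1 table of FPKM per transcript and group, held in an attribute text (coverage per FPKM 8.14 in control and 9.22 in stress). How the 3 RNA libraries of a group were combined, and each library's read depth, were not given in the sources used here, so no counting interval is stated. The authors' interval for each transcript was not used. For Nr1d1 the FPKM lay above that interval, at 21.5 against 19.3 to 20.9 in control and 24.1 against 21.8 to 23.4 in stress.

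Here FPKM were summed per gene, with a pseudocount of 1 and a minimum mean of 1 FPKM. Peaks were merged into regions when they overlapped by at least 1 bp. Gene bodies and starts came from the mm9 transcripts of the tables. Coverage per gene was compared with exact permutation tests over 20 assignments and Benjamini-Hochberg adjustment over 18203 genes. These p-values measure the spread between pools. Promoter letters came from RefSeq GRCm38.p6 and were not placed on mm9. The steps were tested on simulated data. Python 3.11.15, pandas 2.3.3, numpy 2.4.6 and scipy 1.17.1 were used.

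The clock genes, the wider lists and the choice of genes to name were made with earlier results of these data known. The rule named the 10 clock genes, wider clock genes past a log2 difference of 0.32 or with a group-only region, genes nearest to a group-only region, and marker lists that moved beside a result. Tef, Hlf, Nr3c1, the neighbours of Dbp, Thra, D930015M05Rik, Vip, Cipc, Csnk1e and Prkaa1 were added with their values in view. Alternatives were a pseudocount of 0.1, the most abundant transcript, centring, 1.5-fold, equal numbers of peaks, the higher-scoring 50% of each list, gaps of 200 bp, 50% cover of a region, other flanks, relative coverage, number of peaks and leaving out each library. Equal covered length, a share change of 10 points and shares by start site were added after seeing the data.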

Additional observations from a re-analysis of the deposited data

How the results depend on the processing

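For RNA, the count of clock genes called higher (2) became 3 with a pseudocount of 0.1, where 13.1% of all genes were called. It became 1 with the most abundant transcript, 0 after centring on all genes and 0 at 1.5-fold, where 11.2%, 3.90% and 1.18% were called. The count called lower (0) became 1 with a pseudocount of 0.1, 1 with the most abundant transcript and 1 after centring, where 5.99%, 6.16% and 6.12% of all genes were called. The median of 0.13 became 0.15, 0.12 and 0.044 with the pseudocount of 0.1, the most abundant transcript and centring, beside all-gene medians of 0.10, 0.08 and 0. Per3 stood at -1.57 with its most abundant control transcript alone. For 5hmC, the 5 genes with stress above control became 4 with equal peak numbers (Per1, Cry1, Cry2 and Dbp, against 9.86% of all genes). They became 3 with the higher-scoring 50% of each list (8.29% of all genes), 3 with equal covered length (7.97%) and 3 by number of peaks (3.70%). There were 3 by relative coverage (5.55%), 2 with a flank of 5 kb (8.36%) and 1 with bodies alone (7.48%). The 2 stress-only regions became 1 with equal peak numbers (1.03% of all regions), the higher-scoring 50% (1.11%), bodies alone or a flank of 5 kb (1.14% each). They also became 1 with equal covered length (0.775%) or 50% cover (1.20%). The mean difference was 3.81 points. With coverage divided by the all-gene mean, the clock windows stood at 2.71 in stress and 1.45 in control, a difference of 1.26. The window difference of Clock turned to -0.035 with the higher-scoring 50%. With the pseudocount of 0.1, Arntl (0.34) and Dbp (-0.37) were past the call. The cause was not tested in any of these. Leaving out 1 library gave 5 to 7 genes with stress above control and 0 with control above stress, a mean difference of 3.04 to 5.33, 2 to 7 stress-only regions and 0 to 1 control-only regions. The 7 genes came without stress 1 and 6 without control 2, where 31.7% and 23.6% of all genes had that pattern, against 10.5% with all libraries. Over 11 alternatives the window difference kept its sign in all 11 for Per1, Cry1, Cry2, Arntl, Nr1d1 and Dbp, and in 10 for Clock. It was above 0 in 7 and below 0 in 4 for Per2, and above 0 in 5 and below 0 in 6 for Per3 and for Nr1d2. A kept sign did not mean a kept size. The Dbp difference fell from 12.9 to 0.77 points with bodies alone, and that of Cry1 from 0.83 to 0.03 with the higher-scoring 50%.

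Deviations of same-numbered libraries had r across genes of 0.16, 0.07 and -0.08 for numbers 1, 2 and 3. Libraries of unlike number had r of -0.22 to 0.14. With 3 libraries per group, these values cannot tell whether a number marks a shared animal or day. With the replicate block, stress was above control in every pair for 6 clock genes (20.7% of all genes), and the mean paired difference was 3.81 ± 2.38 points (SD, n = 3). Depth per library is unknown, RNA has 1 table per group, and no exact test of 3 against 3 libraries can pass 0.05.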
